A study of Mus musculus with 21 samples.

Results

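Mesoderm progenitors made in culture (MPdiff) were compared, gene by gene, with mesoderm progenitors (MPs) sorted from the caudal ends of mouse embryos at E8.5 and at E9.5. A gene was taken as different when its log2((FPKM + 1)/(FPKM + 1)) in MPdiff passed 3-fold in the same direction against both embryonic libraries, among genes with 5 FPKM or more in MPdiff or in both MP libraries. FPKM is a fragment count scaled by transcript length and by the mapped reads of the library. Of 23983 genes in the table, 8150 passed the minimum, and 217 met the rule, 150 of them higher (1.84% of genes tested) and 67 lower (0.822%) in MPdiff. Each gene was then read in the notochord lineage, where cultured notochord progenitors (NotoPdiff) were set against embryonic notochord progenitors (NotoPs) of the same stages. Of the 150 higher genes, 82 (54.7%) were 3-fold higher there too, against 1.6% of the 8150 tested genes. Of the 67 lower genes, 31 (46.3%) were 3-fold lower there too, against 0.896%. Genes of this kind are called shared below.

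All cells came from genetically modified F1G4 (C57BL/6N x SV129) mouse embryonic stem cells, but from separate reporter lines. Embryonic MPs were T+/Noto-/Foxa2- cells of embryos at Theiler stage 12 (E8.5) and Theiler stage 16 (E9.5), pooled before the sort. The supplement of the study gives their T gate as high. The embryos were grown from the stem cells by tetraploid complementation per the labels, whereas the paper describes diploid morula aggregation for this reporter line. Embryonic MPs carried T::H2B-Venus, Noto::H2B-mCherry and Foxa2::H2B-mTurquoise as BAC transgenes, and embryonic NotoPs and trunk notochord cells came from the same reporter line. MPdiff were T+/Noto- cells sorted on day 4 of culture in N2B27 medium, with 10 ng/ml bFGF at first and the Wnt activator CHIR99021 later, and without doxycycline. They carried TRE::Foxa2-IRES-EGFP at Rosa26, T::H2B-mCherry-T2A-irTA and Noto::H2B-mTurquoise as BAC transgenes, so that the Foxa2 transgene needs doxycycline and the T promoter to be active. NotoPdiff came from the same cultured line after 1 ng/ml doxycycline, and neuro-mesodermal progenitors (NMPdiff) were taken from it on day 3. Each condition is 1 library, so no difference has a replicate check, and no error or p-value is given. Culture, age, reporter line, the T and Foxa2 gates, the warmth of dissociation and the sequencer changed together and cannot be told apart. The sequencer was a HiSeq for all 6 embryonic libraries and a NextSeq for all 3 cultured ones.

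As background, mesoderm progenitors at the caudal end of the embryo arise from the primitive streak and later from neuro-mesodermal progenitors, under Wnt and Fgf signalling. They express T (brachyury) and then Tbx6 and Msgn1 as they enter the presomitic mesoderm, the tissue that is segmented into somites. As the axis grows, the cells switch on Hox genes in the order of their place in the clusters, from low to high paralog numbers, with Cdx factors acting on the central Hox genes. Retinoic acid made by Aldh1a2 in somites and anterior mesoderm is kept away from the caudal end by Cyp26a1, which degrades it.

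The labels were checked first on the sorted genes. T was at 25.8 FPKM in MPdiff, 74.8 in E8.5 MPs and 160 in E9.5 MPs. The cultured cells were thus lowest, with log2 ratios of -1.50 and -2.58, and T missed the limit against E8.5. The embryonic MPs were sorted for a high T reporter, and the part of that gate in this difference was not tested. Noto was listed at 0 in all 3 libraries, and Foxa2 was at 1.22, 1.25 and 0.860 FPKM in the same order. Of 11 presomitic mesoderm genes, all 11 reached 1 FPKM in MPdiff, 9 did in E8.5 MPs and 10 in E9.5 MPs. Tbx6 was at 33.2, 39.3 and 67.2 FPKM and Msgn1 at 25.1, 27.5 and 123 FPKM in MPdiff, E8.5 and E9.5, and neither met the rule. The cultured library was therefore in the range of the E8.5 MPs for both defining genes.

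The 3 libraries also held unequal levels of genes that mark other cell types. Genes of gut and yolk sac endoderm summed to 146 FPKM in E8.5 MPs, against 16.6 in MPdiff and 4.25 in E9.5 MPs. Afp, a yolk sac product, was at 62.2 FPKM in E8.5 MPs and listed at 0 in MPdiff and E9.5 MPs. Genes of lateral plate and intermediate mesoderm summed to 135 FPKM in MPdiff, 137 in E8.5 MPs and 9.74 in E9.5 MPs. Feeder fibroblast genes summed to 36.2, 152 and 82.6 FPKM, with Lum and S100a4 listed at 0 in all 3 libraries. Notochord genes summed to 8.36, 2.23 and 5.04 FPKM, neural genes to 9.71, 18.98 and 6.59, and blood and endothelial genes to 27.3, 16.3 and 43.4, most of it Lmo2. In such bulk samples, fewer cells of a type and less RNA per cell cannot be told apart.

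The E8.5 MP library had the fewest cells and the fewest mapped reads of the embryonic libraries, and E9.5 MPs the most reads, by the account in the study. E8.5 MPs also had the most genes listed at 0, with 13945 of 23983, against 10719 in E9.5 MPs and 8246 in MPdiff. Against E8.5 alone, 968 genes (11.9%) were 3-fold higher and 422 (5.18%) lower in MPdiff. Against E9.5 alone, the counts were 263 (3.23%) and 121 (1.48%). The MP libraries of the embryo differed from each other by 3-fold for 1108 of the tested genes (13.6%), in either direction. The median log2 ratio over all tested genes was 0.05 against E8.5 and 0.02 against E9.5, so that the libraries were centred alike. Of the 150 higher genes, 89 (59.3%) were listed at 0 in E8.5 MPs, against 4.92% of tested genes, and 34 (22.7%) in E9.5 MPs, against 0.442%. Of the 150, 131 passed the minimum through MPdiff alone, as did 1792 (22%) of the tested genes, so that a high level in MPdiff was needed for them to be tested at all. For genes listed at 0 no fold is given, since the deposited values keep no counts and a value of 0 in a small library may be a failed estimate. Over the 59 higher genes above 0 in all 3 libraries, the median log2 ratio was 2.31 against E8.5 and 2.30 against E9.5. Over the 64 lower genes above 0, it was -2.52 and -2.13.

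The plot of both ratios shows the members in the corners beyond the dotted lines. Just inside the limit stood Phlda3, with log2 ratios of 1.60 and 2.02, and Egln1, with -2.50 and -1.62. Just outside it stood Bahcc1, with 1.56 and 1.69, and Smyd2, with -2.45 and -1.56. Read by these margins, membership near the limit separates genes with nearly equal values.

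**Figure D1:**
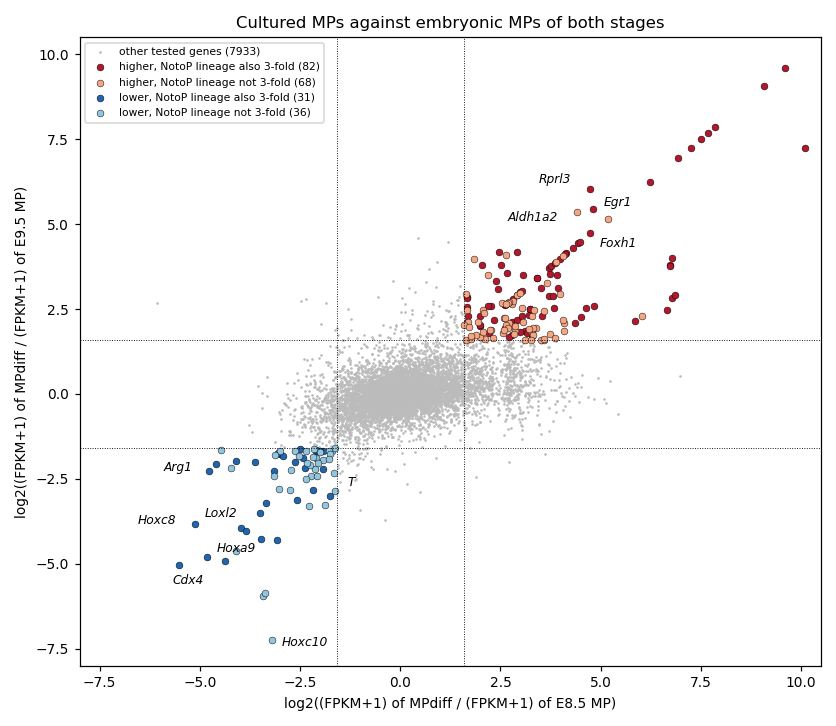
Each point is a tested gene, with its log2 ratio of MPdiff over E8.5 MPs on the x axis and over E9.5 MPs on the y axis, and dotted lines at 3-fold. The 150 higher genes lie in the upper right corner and the 67 lower ones in the lower left, apart from Rn45s, which lies beyond the axes. Dark colours mark the 82 and 31 genes that passed 3-fold in the NotoP lineage too.

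Hox genes made up the largest group of lower genes among the lists examined. Of 39 Hox genes, 30 passed the minimum, 13 were lower, and 0 were higher. The median log2 ratio of the 30 was -1.83 against E8.5 and -1.75 against E9.5. The difference followed paralog number. Of the 15 genes of paralog groups 1 to 5, all passed the minimum and 1, Hoxc4, was lower. Of the 24 genes of groups 6 to 13, 15 passed the minimum and 12 were lower, namely Hoxa6, Hoxa7, Hoxa9, Hoxa10, Hoxb7, Hoxb9, Hoxc6, Hoxc8, Hoxc9, Hoxc10, Hoxd8 and Hoxd10.

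Summed over paralog groups 1 to 5, Hox levels were 265 FPKM in MPdiff, 320 in E8.5 MPs and 335 in E9.5 MPs. Summed over groups 6 to 13, they were 53.01, 459 and 724 FPKM. Groups 6 to 13 together were therefore far lower in the cultured cells. Within groups 1 to 5 the sum hides a difference. Groups 1 to 3 were close to the embryonic MPs, with group 3 at 60.3, 48.6 and 54.7 FPKM. Group 4 was at 36.6 FPKM in MPdiff, 97.1 in E8.5 MPs and 96.0 in E9.5 MPs, and group 5 at 18.3, 26.4 and 58.0. NMPdiff, 1 day earlier in the same culture, were at 34.7 FPKM for groups 1 to 5 and at 0.649 for groups 6 to 13, below MPdiff for both. In the NotoP lineage, groups 6 to 13 summed to 13.4 FPKM in NotoPdiff, 122 in E8.5 NotoPs and 477 in E9.5 NotoPs.

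**Figure D2:**
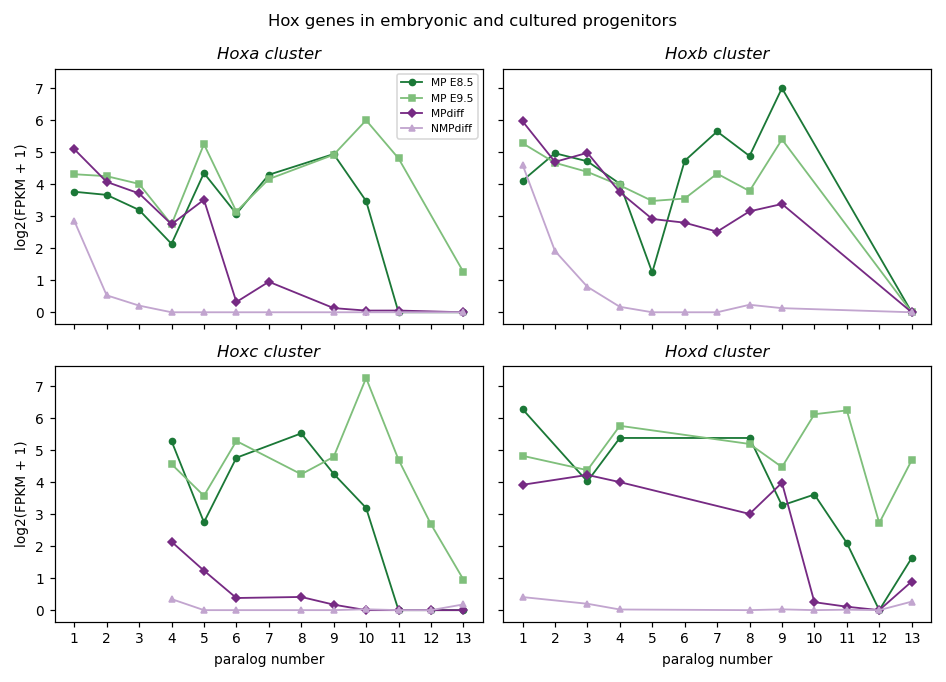
Levels of the Hox genes as log2(FPKM + 1) (y axis) by paralog number (x axis) in each cluster, with 1 line per library. MPdiff (diamonds) run with the embryonic MPs at the lowest paralog numbers and fall below both from group 6 to 10, apart from Hoxd9. Hoxc4 and Hoxa5, among other genes of groups 1 to 5, already lie below both. NMPdiff (triangles) stand clear of 0 mainly at the lowest paralog numbers.

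The clusters were not alike. In the Hoxa cluster on chromosome 6, MPdiff held Hoxa5 at 10.4 FPKM, against 19.4 and 37.0 in the MPs, and Hoxa6 at 0.249, against 7.43 and 7.85. Hoxa9 (GRCm38 chr6:52223097-52227370) was at 0.0942 FPKM in MPdiff, 29.7 in E8.5 MPs and 29.3 in E9.5 MPs, which gives log2 ratios of -4.81 and -4.79. In NotoPdiff it was at 0.0637, against 6.72 and 47.5 in the NotoPs, and it was shared. In the Hoxb cluster on chromosome 11 the cultured cells kept intermediate levels, with Hoxb9 at 9.42, 127 and 41.2 FPKM and Hoxb7 at 4.73, 49.1 and 19.098. Their neighbours Hoxb6 and Hoxb8 were lower by less than 3-fold against E9.5. In the Hoxc cluster on chromosome 15, Hoxc6 was at 0.300 FPKM in MPdiff and 26.1 and 37.9 in MPs, Hoxc8 at 0.330, 44.9 and 18.0, and Hoxc10 was listed at 0 against 8.14 and 151. In the Hoxd cluster on chromosome 2, Hoxd9 was at 14.8 FPKM in MPdiff, between the 8.65 of E8.5 and the 21.1 of E9.5, while its neighbours Hoxd8 (7.03, 40.5 and 35.5) and Hoxd10 (0.188, 11.2 and 68.5) were lower. A low level was therefore not uniform over the genes of groups 6 to 10.

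Genes of groups 11 to 13 were at 2.09 FPKM or less in E8.5 MPs apart from Hoxd11, at 3.28, so they did not pass the minimum and could not meet the rule. They were on in E9.5 MPs, where Hoxd11 reached 74.5 FPKM, and they count in the sums over groups 6 to 13. Group 11 summed to 0.115 FPKM in MPdiff and 126 in E9.5 MPs. Of the 13 lower Hox genes, 6 were shared with the NotoP lineage. The other 7 included Hoxc9 and Hoxc10, which were listed at 0 in E8.5 NotoPs and could not pass there, and Hoxa10 and Hoxd10, at 0.368 and 0.510 FPKM in E8.5 NotoPs. Against E9.5 NotoPs all 4 were lower, with log2 ratios between -4.31 and -6.01.

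Cdx4, a caudal factor that acts on central Hox genes, had the largest fall by the smaller of both changes among genes above 0, while Hoxa10 and Hoxd10 fell further against E9.5 alone. It lies on chromosome X (GRCm38 chrX:103321398-103330224) and was at 2.26 FPKM in MPdiff, 150 in E8.5 MPs and 107 in E9.5 MPs, 46.2-fold and 33.1-fold lower on the FPKM + 1 scale. NotoPdiff were at 1.16 FPKM, against 26.0 and 32.7 in the NotoPs, and NMPdiff at 0.315. Its relatives did not follow it. Cdx2 was at 47.0, 50.8 and 52.7 FPKM in MPdiff, E8.5 and E9.5, nearly level, and Cdx1 at 19.004, 11.9 and 1.05. A pair of long non-coding RNAs from within the Hoxa cluster were low as well. Hoxaas3, which runs antisense to Hoxa genes, was at 8.12, 143 and 139 FPKM, and Mira at 2.95, 55.4 and 64.3. The libraries were counted by strand, but Hoxaas3 and Mira overlap or adjoin Hoxa6 and Hoxa7 and are not independent of them.

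Enzymes of glycolysis and genes known to respond to low oxygen were the next group of lower genes. Of 18 tested glycolysis genes, 3 were lower and 0 higher, and 14 of the 18 lay below both embryonic libraries by any amount, as did 30.7% of all tested genes, with median log2 ratios of -1.21 and -0.86. Of 14 tested hypoxia response genes, 3 were lower and 0 higher, and 12 lay below both, with medians of -1.30 and -0.67. All 6 were shared with the NotoP lineage, where the list medians were -1.35 and -1.11 for glycolysis and -2.18 and -1.78 for hypoxia. These medians stand beside 0.05 and 0.02 for all tested genes in the MP lineage and 0.00 and -0.00 in the NotoP lineage.

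Slc2a3, the neuronal-type glucose transporter (GRCm38 chr6:122727809-122802363), was at 21.4 FPKM in MPdiff, 198 in E8.5 MPs and 107 in E9.5 MPs, 8.87-fold and 4.80-fold lower. Pgk1, a glycolytic kinase, was at 205, 826 and 664 FPKM, and Pdk1, which restrains entry of pyruvate into mitochondria, at 5.32, 26.0 and 19.3. Among hypoxia response genes, Bnip3, which acts in mitophagy, was at 14.1, 91.6 and 59.9 FPKM. Egln1, an oxygen sensor that marks Hif1a for decay, was at 7.11, 44.9 and 23.9, and P4ha1, a collagen prolyl hydroxylase subunit, at 8.38, 70.0 and 32.6. In each of these 6 genes all 3 cultured libraries lay below all 6 embryonic ones. The 6 were chosen as lower in MPdiff and all were shared, so much of this split follows from the choice. The share of all tested genes with such a split was not counted. In NMPdiff the 6 genes were at 32.6, 307, 9.38, 28.6, 10.3 and 9.17 FPKM, in the order named.

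The rest of both lists leaned the same way by smaller steps. Gapdh was at 210 FPKM in MPdiff, 865 in E8.5 MPs and 514 in E9.5 MPs, with log2 ratios of -2.04 and -1.29, and Pfkl, Tpi1 and Fam162a also missed the limit against E9.5 alone. Ldhb went the other way, at 60.9, 18.1 and 26.9 FPKM, and so did Aldoc and Pfkm. Vegfa was at 13.4, 21.5 and 15.5 FPKM, with ratios of -0.65 and -0.20. Other genes among the lower members were named after their values were seen. Arg1, which splits arginine, was at 2.41, 91.4 and 15.5 FPKM. Mfap2, a microfibril protein, was at 0.536, 12.0 and 29.2. Both were shared. So was Loxl2, named by its size, a collagen cross-linking enzyme at 1.52, 27.6 and 27.4 FPKM and at 1.47, 36.8 and 46.7 in the NotoP lineage. Cox4i2, an alternative cytochrome oxidase subunit from the list of oxidative phosphorylation genes, was at 2.27, 25.0 and 10.1 FPKM.

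The hypoxia response element, to which Hif factors bind, was searched as ACGTGC on both strands of RefSeq promoter windows (GRCm38.p6, 250 bases before to 50 after each start). Of the 6 lower glycolysis and hypoxia genes, 5 had windows in that table, 6 windows in all, and 4 windows (66.7%) held the letters, those of Bnip3, Egln1, P4ha1 and Pgk1. Over all 37 matched genes of both lists, 18 of 58 windows (31%) held them, against 5.91% of all 32851 windows. For all lower genes the share was 7 of 52 windows (13.5%) and for higher genes 8 of 102 (7.84%), from 47 and 74 matched genes. The hypoxia list names genes known to respond to low oxygen, and the 6 genes were chosen by the rule, so nothing is read from the 66.7%. The 4 windows are printed because their genes were all lower by the rule, with the letters in capitals, read along the strand of the gene. In Bnip3 the element occurs once on each strand and the copies overlap, at 109 and 107 bases before the start, so the capitals run on.
Bnip3 (chr7:138909457-138909756, minus strand): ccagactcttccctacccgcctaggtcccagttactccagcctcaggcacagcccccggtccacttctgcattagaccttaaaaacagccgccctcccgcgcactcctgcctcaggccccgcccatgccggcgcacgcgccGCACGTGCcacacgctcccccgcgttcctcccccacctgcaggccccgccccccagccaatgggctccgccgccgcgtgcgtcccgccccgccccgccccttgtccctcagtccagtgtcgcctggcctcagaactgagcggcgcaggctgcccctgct
Egln1 (chr8:124949205-124949504, minus strand): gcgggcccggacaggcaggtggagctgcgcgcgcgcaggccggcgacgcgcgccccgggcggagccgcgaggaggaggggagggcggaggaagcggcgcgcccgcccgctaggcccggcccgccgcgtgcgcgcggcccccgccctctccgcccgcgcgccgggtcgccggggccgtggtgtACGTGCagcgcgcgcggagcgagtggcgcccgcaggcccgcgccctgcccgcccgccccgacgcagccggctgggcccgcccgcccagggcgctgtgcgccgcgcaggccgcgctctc
P4ha1 (chr10:59323046-59323345, plus strand): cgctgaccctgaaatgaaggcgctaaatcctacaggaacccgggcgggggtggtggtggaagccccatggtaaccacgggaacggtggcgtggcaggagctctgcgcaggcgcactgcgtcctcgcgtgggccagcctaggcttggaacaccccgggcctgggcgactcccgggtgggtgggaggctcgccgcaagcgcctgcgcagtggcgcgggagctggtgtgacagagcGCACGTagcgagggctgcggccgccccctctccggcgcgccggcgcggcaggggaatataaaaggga
Pgk1 (chrX:106186850-106187149, plus strand): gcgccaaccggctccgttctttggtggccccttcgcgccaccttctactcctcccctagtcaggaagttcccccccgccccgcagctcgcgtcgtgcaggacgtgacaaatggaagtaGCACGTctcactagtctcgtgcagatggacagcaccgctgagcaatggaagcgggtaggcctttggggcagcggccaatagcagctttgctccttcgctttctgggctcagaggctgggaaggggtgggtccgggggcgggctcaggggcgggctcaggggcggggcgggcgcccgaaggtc
A match is a description of the letters, and binding was not measured here. Searched in the same way, CTTTGAT of Tcf and Lef factors was in 4.9% of the windows of higher genes and 5.77% of those of lower genes, against 3.73% of all. TGATGNAA, the composite element of Atf4, was in 0 of 102 and 0 of 52 windows, against 3.97%. TCACACCT, bound by T, was in 2.94% and 0%, against 1.28%, and TCACNCCAC, the sterol response element, in 0% and 1.92%, against 1.24%. Few windows stand behind each share.

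Among signalling genes, the calls were scattered within their lists. Dusp4 and Dusp6, phosphatases that Fgf signalling switches on and that restrain it, were both lower. Dusp4 was at 14.2 FPKM in MPdiff, 75.9 in E8.5 MPs and 85.0 in E9.5 MPs, and Dusp6 at 14.3, 63.1 and 80.9. NMPdiff had 39.8 and 114 FPKM of the same genes. Etv1, another target of the pathway, was higher, at 13.1, 3.14 and 3.57 FPKM. The other 9 tested Fgf targets, Spry and Spred genes and Etv5 among them, met neither limit, and the list had medians of 0.39 and -0.29. None of the 3 was shared.

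Wnt3a, the ligand of the caudal progenitor zone, was at 2.94, 11.3 and 18.9 FPKM and was lower. Wnt8a, a ligand of the primitive streak, was higher, at 5.09 FPKM in MPdiff against a listed 0 and 0.301. Of 12 tested Wnt feedback targets, 0 met the rule, with medians of 0.36 and 0.45. Axin2, the most direct of them, was at 61.5, 34.1 and 24.7 FPKM, above both embryonic libraries by less than 3-fold, and Lef1 at 205, 188 and 194. Of 9 tested Notch targets and 10 tested BMP and Tgf-beta targets, 0 met the rule.

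Single genes of matrix and muscle-type proteins were among the lower members. Lama1, a laminin chain of basement membranes, was at 14.4, 62.4 and 62.6 FPKM. Col1a2 was at 0.507, 6.06 and 7.11 and Acta2, a smooth muscle actin, at 2.54, 14.1 and 12.1. Csrp2, a muscle LIM protein, was at 23.4, 117 and 239 FPKM, and Sparcl1, a matrix protein, at 7.604, 69.1 and 58.4. Dlk1, an imprinted gene, was at 1.92, 10.2 and 10.3 FPKM. None of these 6 genes passed 3-fold against both NotoP libraries, although Lama1, Sparcl1 and Dlk1 did against E9.5, with log2 ratios of -2.04, -1.97 and -2.33. Col1a2 is also among the feeder fibroblast markers, whose sum was lower in MPdiff than in both MP libraries. Which cells these transcripts came from was not tested. Of the 17 tested genes of the extracellular matrix list, Lama1 was the 1 that met the rule, and the list had medians of -0.02 and -0.01. Of 10 tested actomyosin and Yap target genes, Acta2 was the 1 that met it, with medians of -0.36 and -0.48.

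By the smaller of both changes, Aldh1a2 rose most among genes above 0 that were not shared. This enzyme, which makes retinoic acid (GRCm38 chr9:71215789-71296243), was at 364 FPKM in MPdiff, 16.05 in E8.5 MPs and 7.88 in E9.5 MPs, 21.4-fold and 41.2-fold higher. It was at 0.301 FPKM in NMPdiff, so its level within the culture was far higher on day 4 than on day 3. NotoPdiff had 70.3 FPKM, against 42.9 and 31.3 in NotoPs, with log2 ratios of 0.70 and 1.14. Rdh10, which makes the substrate of Aldh1a2, was at 18.3, 2.26 and 4.58 FPKM. Cyp26a1, which breaks retinoic acid down, was at 7.15, 29.1 and 78.3 FPKM. The maker and the supplier of its substrate were thus higher and the remover lower. Of 9 tested retinoic acid genes these 3 met the rule, and the list had medians of -0.28 and 0.40. Crabp1 was at 154, 188 and 116 FPKM and the receptor gene Rarg at 7.44, 18.1 and 31.2.

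Aldh1a2 also belongs to the list of somite and anterior presomitic mesoderm, whose other 3 tested members did not rise with it. Meox1 was at 11.6, 37.6 and 14.3 FPKM, Foxc1 at 33.9, 44.2 and 54.0, and Foxc2 at 9.64, 28.6 and 23.7, each lowest in MPdiff. Lateral plate genes moved with it against E9.5. Foxf1 was at 36.6, 26.8 and 0.566 FPKM, Hand1 at 26.4, 10.9 and 0.241, and Prrx1 at 10.3, 5.08 and 0.280, while Hand2 was at 0.797, 22.1 and a listed 0. Of 6 tested lateral plate genes, 5 lay above both MP libraries, as did 34.2% of all tested genes, and all 6 had passed the minimum through MPdiff alone. The 1 that met the rule was Prrx2, at 27.5, 6.90 and 0.810 FPKM. The medians of the list were 1.05 and 3.56. Whether such cells took part in the Aldh1a2 level was not tested.

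Further higher genes that were not shared were named by their size. Twist1, a mesenchymal transcription factor, was at 23.3, 3.18 and 2.81 FPKM, with 5.25 in NMPdiff and 5.08 in NotoPdiff. Msx1os, a transcript antisense to Msx1, was at 52.1, 2.37 and 5.85 FPKM. Msx1 itself, a BMP target, was at 9.07, 2.69 and 0.474 and missed the limit against E8.5. Zfp703, a transcriptional repressor, was at 32.9, 2.46 and 5.91 FPKM in the MP lineage and at 72.1, 45.2 and 39.9 in the NotoP lineage. Slc29a1, a nucleoside transporter, was at 43.9, 6.197 and 1.66 FPKM, and Ap1s3, an adaptor subunit, at 15.8, 1.805 and 2.54. None of these 5 higher genes was shared. In the NotoP lineage Slc29a1, with log2 ratios of 2.92 and 1.55, fell just short, and Ap1s3, with 1.38 and 1.59, fell short against E8.5. Twist1 rose there as well, with 1.15 and 2.60, the latter against a listed 0. Msx1os had -0.49 and 0.68.

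Eomes, Mixl1, Lhx1 and Foxh1, genes of the primitive streak, were higher in MPdiff and higher still in NMPdiff. They were the 4 tested genes of a list of 12, and 3 of them were shared. All 4 passed the minimum through MPdiff alone, so that the count of 4 of 4 carries no weight. Eomes was at 5.799 FPKM in MPdiff, against 0.709 and 0.375, and at 54.1 in NMPdiff. Lhx1 was at 8.36, a listed 0 and 0.665, with 37.0 in NMPdiff. Foxh1, a partner of Smad2 in Nodal signalling, was at 25.7 FPKM and listed at 0 in both MP libraries, with 27.4 in NMPdiff. Mixl1 was at 26.8, 5.67 and 4.00 FPKM, with 214 in NMPdiff, and it was not shared, since embryonic NotoPs were at 61.0 and 44.7 beside 55.3 in NotoPdiff. Nodal and Gsc, further genes of the list, were at 1.64 and 0.889 FPKM in MPdiff and did not pass the minimum.

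Pou5f1 was the 1 higher gene among the 4 tested pluripotency and epiblast genes, at 13.1 FPKM in MPdiff, a listed 0 in E8.5 and 0.923 in E9.5 MPs. It was at 269 FPKM in NMPdiff and 10.7 in NotoPdiff. Nanog, at 0.216 FPKM in MPdiff and 21.8 in NMPdiff, and Zfp42, at 1.52, did not pass the minimum, and Utf1 and Dppa3 were at 0.0375 and 0. The remaining level of Pou5f1 was therefore not matched by Nanog. Dnmt3b was at 40.4, 16.04 and 18.7 FPKM and missed the limit. Mesp1, a factor of nascent mesoderm, was at 9.85, 2.41 and 0.849 FPKM in the MP lineage and 14.9 in NMPdiff. Fst, an activin antagonist, was at 27.5, 2.03 and 4.05 FPKM, with 295 in NMPdiff.

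Over all members, NMPdiff lay above MPdiff for 96 of the 150 higher genes (64%) and 28 of the 67 lower genes (41.8%), against 49.7% of tested genes. These shares describe levels in NMPdiff and MPdiff and share the MPdiff library with the rule. Set against the 4 other embryonic libraries, MPdiff lay above all 4 for 114 of the 150 higher genes (76%), against 24.1% of tested genes. It lay below all 4 for 37 of the 67 lower genes (55.2%), against 16.6%. The same MPdiff values chose the members, so these shares are a description and nothing is read from the excess.

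Genes that p53 switches on lay mostly above the embryonic MPs. Of 11 tested p53 targets, 4 were higher and 0 lower, and 9 lay above both MP libraries, beside the 34.2% of all tested genes, with medians of 1.39 and 1.88. The 4 higher ones passed the minimum through MPdiff alone, as did 7 of the 11. Zmat3, which regulates splicing, was at 29.5, 2.00 and 4.47 FPKM. Trp53inp1, a stress protein, was at 17.7, 3.37 and 2.63, and Phlda3, an Akt repressor, at 18.2, 5.31 and 3.74. Eda2r, a receptor, was at 11.1 FPKM, a listed 0 and 1.23. Cdkn1a was at 15.3, 12.2 and 1.92 FPKM and Mdm2 at 31.4, 19.8 and 24.0, and neither met the rule, while Bax was at 46.2, 71.7 and 44.2. None of the 4 was shared by the 3-fold limit, but all 4 were higher in NotoPdiff than in both NotoP libraries. Zmat3 had log2 ratios of 1.56 and 1.14 there, and the list had medians of 1.94 and 1.12 in that lineage.

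Egr1, an immediate early gene that mitogens and handling can induce within minutes, rose most among the shared genes above 0 by the smaller of both changes, while Rprl3 rose more against E9.5 alone. It was at 74.7 FPKM in MPdiff, 1.69 in E8.5 MPs and 0.744 in E9.5 MPs, 28.1-fold and 43.4-fold higher. It was at 44.6 in NotoPdiff and 70.5 in NMPdiff, against 0.614 and 0.419 in the NotoPs and 3.58 and 19.3 in trunk notochord. All 3 cultured libraries therefore lay above all 6 embryonic ones. Fos was higher too, at 7.27 FPKM, a listed 0 and 0.437, and was not shared. Of 10 tested immediate early genes these 2 met the rule, and the list had medians of 0.66 and 0.75. Of the 10, 8 lay above both MP libraries, as did 34.2% of all tested genes. Both higher genes passed the minimum through MPdiff alone, as did 6 of the 10, so a high level in MPdiff was needed for these to be tested. Ier2 was at 39.96, 27.3 and 21.0 FPKM, Dusp1 at 7.68, 5.35 and 4.94, and Btg2, at 6.18, 14.3 and 36.5, went the other way. Of 11 tested heat shock and chaperone genes, 0 met the rule.

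Other higher genes named by their size were of mixed function, and those given here were shared. Pbx3, a cofactor of Hox proteins, was at 65.5, 11.4 and 6.89 FPKM, with 27.3 in NotoPdiff and 7.27 and 2.58 in NotoPs. Cmah, which modifies sialic acid, was at 69.3, 11.8 and 2.91. Ass1, an enzyme of arginine synthesis, was at 5.17 FPKM in MPdiff and 23.8 in NMPdiff, against 0.00138 and 0.00137. Txnip, a thioredoxin-binding protein that restrains glucose uptake, was at 27.6 FPKM, a listed 0 and 3.76, while Slc2a3, above, was lower. Cxx1c was at 56.9 FPKM, a listed 0 and 12.0. 2310014L17Rik, which RefSeq lists as the protein-coding Rnf225, was at 22.9, 3.20 and 0.706. Gm6654, at 76.5, 8.29 and 5.84 FPKM, is a pseudogene-like copy whose reads may come from a parent gene, and 1 alignment was kept per read.

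Small non-coding RNAs formed the largest class among the higher genes. They made up 54 of the 8150 tested genes (0.663%) and 41 of the 150 higher ones, and 36 of the 41 were shared. Of 1228 such genes only these 54 were tested, and 34 of the 41 passed the minimum through MPdiff alone, so the share called was largely set by the minimum. The sum over all small non-coding RNA genes was 19900 FPKM in MPdiff, 4134 in E8.5 MPs and 5380 in E9.5 MPs. All 3 cultured libraries lay between 19900 and 28000 FPKM and all 6 embryonic ones between 3780 and 6080, with no overlap. Of those named after their values were seen, Snord104 was at 1101 FPKM in MPdiff, a listed 0 and 6.26, and Snord15a at 428, 70.1 and 68.0. Rprl3, an RNase P RNA gene, was at 320, 10.9 and 3.86 FPKM, with 422 in NotoPdiff against a listed 0 and 8.15. These transcripts are shorter than a usual library fragment, and Cufflinks was run with no correction for effective length, so their FPKM values are uncertain. Also named after their values were seen, Gas5, a long transcript that hosts snoRNAs in its introns, was at 318, 66.0 and 52.5 FPKM and shared, and Snhg8, another host, was at 48.5, 6.91 and 11.2 and not shared.

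The largest value of all moved the other way. Rn45s, the precursor of ribosomal RNA, was listed at 0 in all 3 cultured libraries and at 18506 to 22382 FPKM in all 6 embryonic ones, where it was 4.66% to 5.51% of the summed FPKM. Another entry, OTTMUSG00000016609, was listed at 0 in all 3 cultured libraries as well, and at 10.1 and 18.2 FPKM in the MPs. Rn45s, which every growing cell makes, was thus listed at 0 in every cultured library and present in every embryonic one. Culture, sequencer and the other differences named above changed together between these libraries, and the cause was not tested. Rn45s is counted among the 31 shared lower genes. Of 77 tested ribosomal protein genes 1 met the rule, Rpl26, at 167, 763 and 1184 FPKM, and it was shared.

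Several gene lists had no member past the limit. Of 40 lists, 39 had a measured gene and 14 of these had no higher or lower member, among them neural genes, with 0 tested, and 3 lists with 1 tested gene each. Cell cycle genes had 0 of 20 tested past the limit and medians of -0.34 and -0.18. Of 15 housekeeping genes 1 met the rule, Pgk1, and the medians were 0.20 and -0.00. Cholesterol synthesis and uptake also had 0 of 22 past 3-fold, but all 22 tested genes were above both MP libraries, beside the 34.2% of all tested genes, with medians of 1.39 and 0.77, and of 1.43 and 1.38 in the NotoP lineage. Hmgcs1, an early enzyme of the pathway, was at 186, 53.8 and 118 FPKM. Differences of this size are not recorded by the 3-fold rule.

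**Figure D3:**
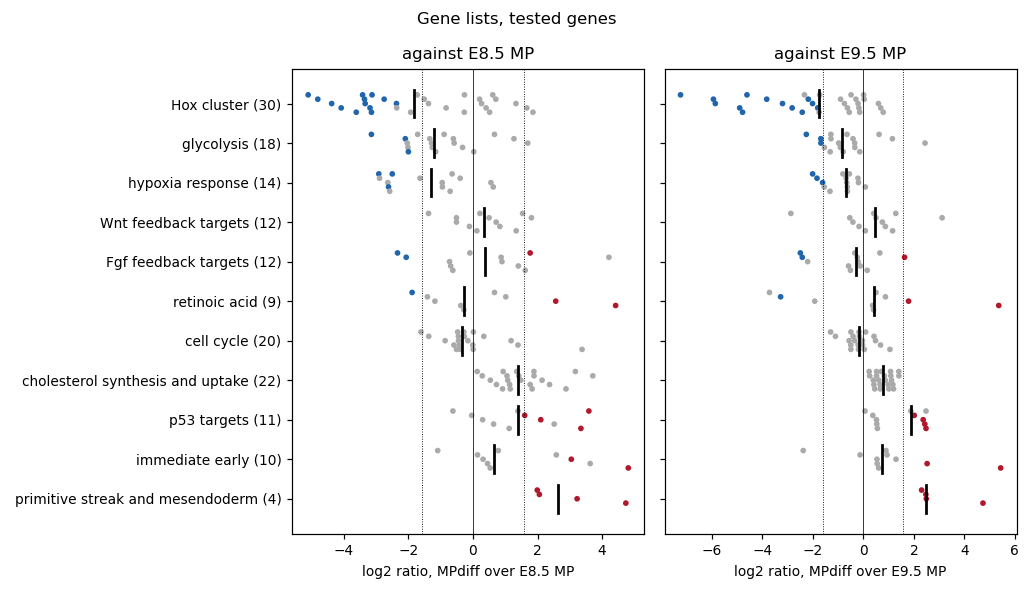
Each point is a tested gene of a list, with its log2 ratio of MPdiff over E8.5 MPs (left) and E9.5 MPs (right), black bars at the median of the list and dotted lines at 3-fold. Red and blue points are higher and lower genes, and the number of tested genes is in brackets. Cholesterol genes lie to the right of 0 in both panels without passing both limits, and Hox genes spread from near 0 to beyond -4.

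The NotoP lineage was read for each member as a measure from other libraries, although the sequencer, the reporter lines and the handling differ between culture and embryo there in the same way. Of the 150 higher genes, 132 were higher in NotoPdiff than in both NotoP libraries by any amount, and of the 67 lower genes, 60 were lower. No such share of all tested genes was counted, here or for the 2-fold counts below, so nothing is read from these counts. Without small non-coding RNA, histone and ribosomal protein genes, 46 of 108 higher genes (42.6%) and 29 of 62 lower genes (46.8%) were shared. Over all 8150 tested genes, 1.6% were 3-fold higher and 0.896% were 3-fold lower in NotoPdiff than in both NotoP libraries. Among the 68 higher genes that were not shared, 16 still passed 2-fold against both NotoP libraries, and 24 changed by less than 2-fold against both. Among the 36 lower genes that were not shared, the counts were 9 and 10. With a minimum set on the NotoP lineage itself, 2.08% of its tested genes were 3-fold higher in NotoPdiff and 1.41% were lower.

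By this mark, the lower glycolysis and hypoxia genes, Cdx4, Loxl2, Rn45s, Egr1, Foxh1, Eomes, Pou5f1 and most small RNAs were found in both lineages. They are marked as culture or platform effects, which cannot be told apart here. Age, reporter line and the other differences named above changed too and cannot be told apart from these. Aldh1a2, Rdh10, Twist1, Prrx2, Dusp4, Dusp6, Wnt3a, Cyp26a1, Lama1 and Csrp2 were not shared. In the NotoP lineage, Rdh10 had log2 ratios of -0.26 and 0.56 and Zfp703, also not shared, of 0.66 and 0.84. Twist1 had 1.15 and 2.60, Csrp2 -0.81 and -1.44 and Cyp26a1 -0.91 and -2.73, in the direction of the MPs. So did Aldh1a2, with 0.70 and 1.14, Dusp4, with -1.12 and -0.51, and Dusp6, with -0.76 and -1.38. Wnt3a, with -1.10 and -0.68, and Lama1, with -1.18 and -2.04, went the same way. Prrx2 had -1.49 and 1.60, of unlike sign. A gene that was not shared is therefore not thereby particular to the MP lineage. With 1 library per condition, no difference between the lineages was tested.

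**Figure D4:**
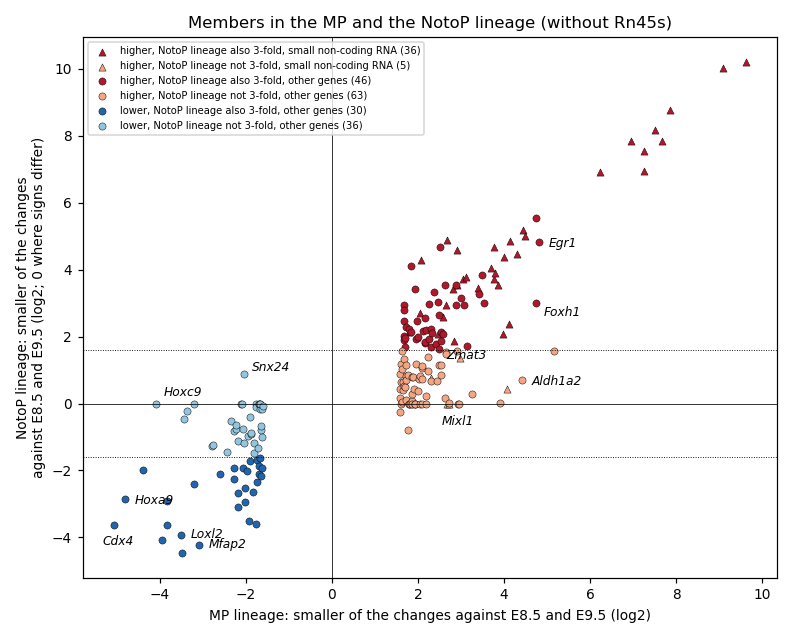
Members other than Rn45s, with the smaller of both log2 changes in the MP lineage (x axis) and in the NotoP lineage (y axis, set to 0 where the 2 ratios differ in sign), small non-coding RNAs as triangles and dotted lines at 3-fold. Points beyond the dotted lines are the shared genes, and Aldh1a2, at 4.42 and 0.70, lies far right and low.

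**Figure D5:**
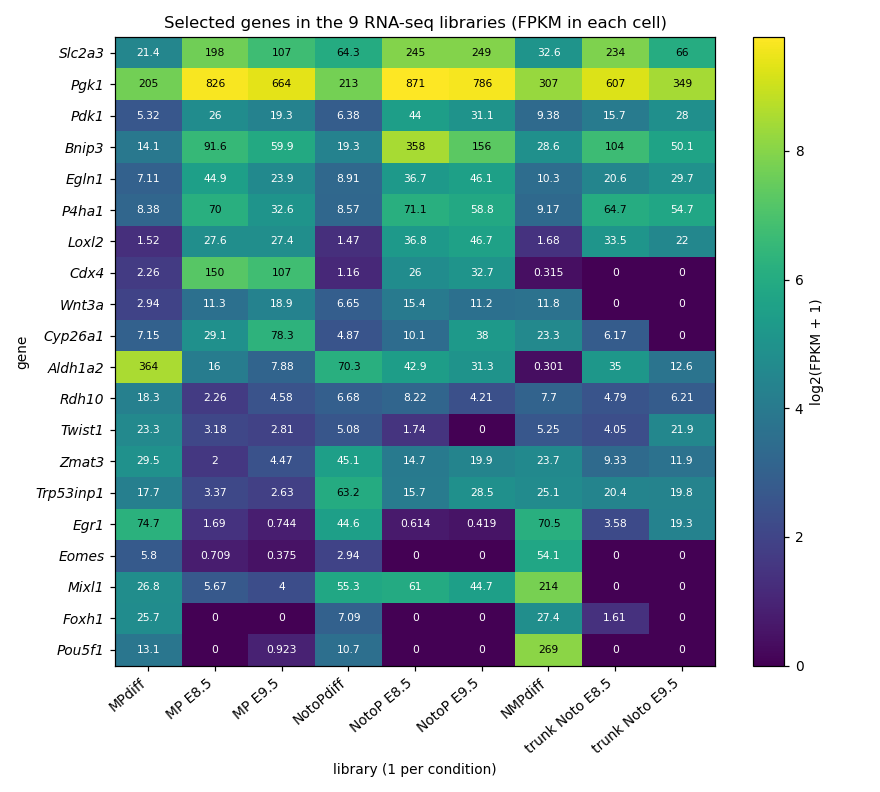
FPKM of 20 genes (rows, FPKM printed in each cell, colour log2(FPKM + 1)) in the 9 RNA-seq libraries (columns). In the upper 7 genes, from Slc2a3 to Loxl2, each of the 3 cultured columns is darker than every embryonic one. These 7 genes were taken from the lower genes that were shared. Aldh1a2 is brightest in MPdiff, at 364.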

How the data were processed

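RNA-seq libraries were made with the Ovation SoLo kit, 1 per condition. Per the labels and the methods of the study, the authors removed duplicates by molecular identifiers, aligned reads to mm10 with TopHat2 2.1.1 and Bowtie 1.2.2, keeping 1 alignment per read, and ran Cufflinks 2.2.1 by strand on RefSeq genes without effective length correction. The authors deposited FPKM values, which keep no read counts, so no interval or count test was possible. Mapped reads that the study states for embryonic libraries were not used here. Peak files of the other 12 samples were not used here.

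Ratios were log2((FPKM + 1)/(FPKM + 1)), so folds of low genes are understated, with a minimum of 5 FPKM and a limit of 3-fold against both MP libraries. Members, the 40 gene lists and the promoter motifs were chosen with earlier results of these data known. Named genes were the 8 with the largest smaller-of-both change among genes above 0 in each direction, shared and not shared, outside small non-coding RNA, histone and ribosomal protein genes. To these were added the 4 highest among higher genes listed at 0 in an MP library, the 4 highest among lower genes listed at 0 in MPdiff, the reporter genes T, Noto and Foxa2, and list members. Promoters came from RefSeq (GRCm38.p6). Python 3.11.15, numpy 2.4.6, pandas 2.3.3 and matplotlib 3.10.9 were used, and the ratio code was tested on simulated data. Of the alternatives, 60 were planned and others were added after the data were seen. Some genes that the naming rule selects are not reported here.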

Additional observations from a re-analysis of the deposited data

Results flagged for a closer look

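For 3 member genes the lineages moved in opposite directions against both embryonic stages, a difference that was not tested, since each condition is 1 library. 5430416N02Rik had log2 ratios of 3.75 and 1.78 for MPdiff over E8.5 and E9.5 MPs, and of -0.80 and -0.83 for NotoPdiff over E8.5 and E9.5 NotoPs. Rhebl1 had 3.12 and 1.59 in the MP lineage and -0.24 and -0.48 in the NotoP lineage. Snx24, a sorting nexin, had -2.32 and -2.03 in the MP lineage and 1.06 and 0.89 in the NotoP lineage.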

How the results depend on the processing

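No paired analysis was possible because each condition is 1 library. The count of 150 higher genes became 66 with a pseudocount of 5, 243 with a minimum of 1 FPKM or none, 99 with a minimum of 10, 359 at 2-fold, 98 at 4-fold, 968 against E8.5 alone, 263 against E9.5 alone, and 59 without genes listed at 0 in an MP library. The count of 67 lower genes became 30 with a pseudocount of 5, 212 at 2-fold, 36 at 4-fold, 422 against E8.5 alone and 121 against E9.5 alone. The shared part of higher genes, 54.7%, became 71.2% with a pseudocount of 5, 42.0% with a minimum of 1 FPKM or none, 63.6% with a minimum of 10, 41.5% at 2-fold, 18.4% against E8.5 alone, 42.6% without small non-coding RNA, histone and ribosomal protein genes, and 65.3% with a 2-fold limit in the NotoP lineage. The shared part of lower genes, 46.3%, became 14.0% against E8.5 alone, 59.7% with that 2-fold limit and 23.9% against trunk notochord. Counts within lists were an addition made after seeing the data. With a pseudocount of 5, lower glycolysis and hypoxia genes went from 6 to 3, p53 targets from 4 to 1 and streak genes from 4 to 1. At 2-fold, lower glycolysis and hypoxia genes were 12 and higher cholesterol genes 7. No member turned its direction under the 14 settings that redrew the members, of which only the rescalings could have turned one. A larger pseudocount lowers the ratios of low genes by construction, and the cause of the other shifts was not tested. The E8.5 MP library, the least deeply sequenced embryonic one by the account in the study, limits what can be read from low genes.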
